A study of Mus musculus with 26 samples.

Results

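The genes described here are 38 mouse genes of the ER unfolded protein response and the ATF4 stress response, chosen by name: a gene counted when a probe set of the array carried its symbol, current or older. All 38 were found, of 12393 genes with a probe set of a single symbol. Where a gene had several probe sets, the brightest over all arrays stood for it. A probe set was tested when it reached log2 intensity 5 on at least 3 arrays. This left 34 of the 38 genes, out of 7435 genes tested. S49 cells are a mouse T lymphoma line, grown in suspension, and D- (deathless) is a variant of it known for surviving the cAMP treatment that kills the wild-type (WT) cells. Both lines were untreated or treated for 2, 6 or 24 h with 8-CPT-cAMP, an analogue of cAMP that enters cells and switches on protein kinase A, at a labelled 100 mM, a unit that may be an error. Each line had 4 untreated samples and 3 at each treated time, 26 Affymetrix arrays in all. Titles of treated WT samples carry the word untreated, but the other label fields state the treatment and were followed.

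The endoplasmic reticulum (ER) folds membrane and secreted proteins, and cells answer unfolded protein there through the ER membrane sensors, PERK (Eif2ak3), IRE1 (Ern1) and ATF6. IRE1 splices Xbp1 mRNA and ATF6 is cut to a transcription factor, and both raise chaperone and degradation genes. PERK phosphorylates eIF2, which lowers general translation and raises translation of ATF4, a transcription factor for amino acid supply genes and for the death-linked factor CHOP (Ddit3). Other kinases, such as GCN2 (Eif2ak4), which senses amino acid shortage, feed the same ATF4 arm without ER stress. An array reads mRNA level only: it does not see eIF2 phosphorylation, ATF6 cleavage, Xbp1 splicing or ATF4 protein.

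The 26 arrays fell into 2 sets that the labels do not name. A set of 10 held the first 2 replicates of each untreated group and the first of each treated group, and the other 16 arrays the second, along an axis that held 38.8% of the variance within groups. The sets were drawn from these same data, by the sign of each array on that axis. Arrays of a set are thus alike by construction, which narrows the spread within it. Adjusted p-values within a set may therefore be too small, and its calls are no independent support. Both sets hold every group, but the set of 10 holds a larger share of the untreated arrays than of the treated ones. The main fit has no term for the sets, so part of their difference can enter a comparison of treated with untreated cells. With the array set as a block, 0 of the 126 calls reported below were lost and 11 were gained. That block, too, was drawn from these data. Arrays of 1 group correlated at 0.972 to 0.995. The replicates are labelled biological, but no source used here says that they were separate cultures, and the p-values cover the spread among these samples, which may be technical. All 8 measured T cell markers passed the filter. The group means of 7 of them stayed at 9.34 or above, while those of Cd247, the CD3 zeta chain, ran from 4.42 to 10.25. Untreated D- cells were lower than untreated WT cells in 2 of the 8: Cd247 by a log2 difference of -4.74 (limma adjusted p = 3.82e-14) and Cd3d by -0.36 (adjusted p = 0.0143). Against untreated cells at 24 h, 6 of the 8 rose and 1 fell in WT and 3 rose and 0 fell in D- cells, where 5 had an unadjusted limma p under 0.05. Of the markers of other cells, 2 of 9 for B and plasma cells, 4 of 9 for myeloid, 1 of 4 for erythroid and 2 of 6 for stromal cells passed it. Among those, the plasma cell marker Sdc1 ranged from 7.22 to 9.62 over the group means and the stromal marker Vim, which lymphoid cells also express, from 11.68 to 14.17. The group means of the stromal marker Pdgfrb ran from 3.29 to 6.42 and those of the myeloid marker Itgam from 3.86 to 6.24. Of these markers of other cells, Sdc1 fell in WT cells at 2 and 6 h (-1.60 and -1.64, limma adjusted p = 0.0298 and 0.0181). Vim rose at 6 h in both lines (1.40 in WT, adjusted p = 0.011, and 2.49 in D- cells, adjusted p = 9.04e-05) and at 24 h in WT cells (1.11, adjusted p = 0.0288). Pdgfrb rose in WT cells at 6 and 24 h (2.89 and 1.11, adjusted p = 1.42e-06 and 0.01), Itgam rose at 24 h in both lines (2.19 in WT, adjusted p = 6.22e-05, and 1.42 in D- cells, adjusted p = 0.00703), and Cd79a fell in D- cells at 24 h (-0.47, adjusted p = 0.008). No other tested marker of other cells was called against untreated cells. The summed intensity of the 6 stromal markers lay at log2 11.59 to 13.18 on untreated WT arrays and 13.71 to 14.09 at 6 h, and at 11.07 to 12.64 and 13.90 to 14.57 on D- arrays. That of the 9 myeloid markers lay at 7.39 to 7.57 on untreated WT arrays and 7.66 to 8.50 at 24 h. Defining genes of other cells were near the floor, with group means of Pax5 at 3.84 or less, Lyz2 at 3.53 or less, Cd14 at 1.60 or less and Col1a1 at 4.11 or less. The part of these markers in the results was not tested. As a check on RNA integrity, the group means of the Gapdh 3' signal less its 5' signal lay between -0.093 and 0.096.

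Against untreated cells, a gene was called at an adjusted p under 0.05 in limma, with p adjusted by Benjamini-Hochberg over all 12724 probe sets tested. In WT cells 10 of the 34 genes were higher and 1 lower at 2 h, 17 higher and 4 lower at 6 h, and 8 higher and 11 lower at 24 h. Of all genes tested, 25.1%, 38.2% and 53.8% were called at 2, 6 and 24 h: 11.2% were higher and 13.9% lower at 2 h, 19.1% higher and 19.1% lower at 6 h, and 26.4% higher and 27.5% lower at 24 h. At 2 and 6 h the share of stress genes that rose was thus above the background of higher calls, while at 24 h the shares in both directions were near it. In D- cells 10 rose and 0 fell at 2 h, 8 rose and 1 fell at 6 h, and 6 rose and 11 fell at 24 h. The background there was 22.3%, 31.8% and 34.7%: 9.05% higher and 13.2% lower at 2 h, 16.2% higher and 15.6% lower at 6 h, and 17.1% higher and 17.6% lower at 24 h. For that 0, 15 of the 34 genes had an unadjusted limma p under 0.05 in either direction. These are bulk samples, in which fewer cells of a kind and less RNA per cell cannot be told apart.

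By the brightest probe set, called in both lines were 8 genes higher at 2 h (Hspa5, Ddit3, Edem1, Syvn1, Ddit4, Ppp1r15a, Eif2ak3 and Dnajc3, the last of them opposed by its other probe sets), 8 that rose at 6 h, and at 24 h 5 that rose and 9 that fell. Over the 6 treated groups, 8 genes were called higher in one and lower in another: Creld2, Herpud1, Hsp90b1, Hyou1, Manf, Pdia6, Sel1l and Sesn2. Another 6 were called in none by that probe set: Calr, Eif2ak2, Eif2ak4, Ern1, Pdia4 and Trib3. For these counts over several groups the matching shares of all genes were not computed, so none is read as unusual. Within the set of 16 arrays alone, 14, 24 and 24 genes were called in WT cells at 2, 6 and 24 h, and 10, 11 and 18 in D- cells. Within the set of 10, where each treated group is 1 array assumed to vary like the untreated pairs, the calls were 5, 7 and 9 in WT cells and 5, 4 and 2 in D- cells. Of the 126 calls described here over all comparisons, 93 were lost there and 10 in the set of 16.

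**Figure D1:**
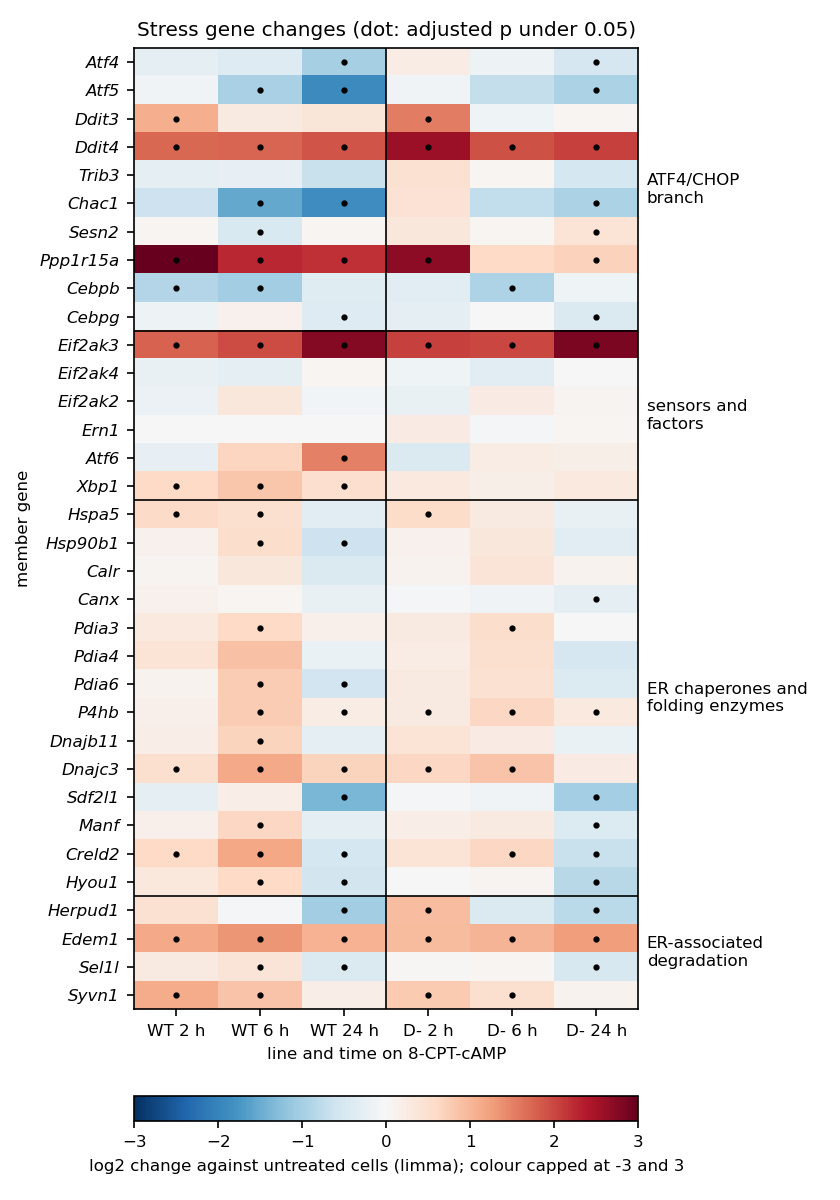
Log2 change of each of the 34 tested genes (rows, by role) against untreated cells of the same line (columns, line and time), coloured blue for lower and red for higher, capped at 3, with a dot where the limma adjusted p was under 0.05. Ppp1r15a, Ddit4 and Eif2ak3 hold the darkest red, and the chaperone block turns from red at 6 h to blue at 24 h.

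The ATF4 and CHOP branch moved apart gene by gene, not as a block. Its highest change belonged to Ppp1r15a (GADD34), the phosphatase subunit that reverses eIF2 phosphorylation and so restores translation. On WT arrays the log2 intensity of Ppp1r15a was 6.78, 6.22, 5.80 and 6.81 untreated, 9.98, 10.52 and 10.42 at 2 h, 8.46, 8.94 and 8.55 at 6 h, and 8.45, 8.58 and 8.70 at 24 h. On D- arrays Ppp1r15a was 7.01, 6.96, 6.84 and 6.08 untreated, 9.39, 9.58 and 9.26 at 2 h, 7.63, 7.40 and 6.95 at 6 h, and 7.70, 7.13 and 7.39 at 24 h. Every treated WT array lay above every untreated one, with the peak at 2 h, while the D- arrays at 6 h overlapped the untreated ones. Ppp1r15a rose in WT cells by 3.91 at 2 h (log2, SE 0.24, 15.0-fold, limma adjusted p = 1.21e-10), 2.25 at 6 h (adjusted p = 3.82e-07) and 2.18 at 24 h (adjusted p = 1.73e-07). The D- changes were 2.69 at 2 h (SE 0.24, 6.45-fold, limma adjusted p = 3.16e-08), 0.60 at 6 h (adjusted p = 0.067) and 0.68 at 24 h (adjusted p = 0.0338). The last call was lost without D- untreated replicate 4 (0.47, adjusted p = 0.136), D- 24 h replicate 1 (0.54, adjusted p = 0.139) or D- 24 h replicate 3 (0.69, adjusted p = 0.0767), in the set of 16 arrays (0.80, adjusted p = 0.0585), with no filter on dim probe sets (adjusted p = 0.0618) and with the replicate number as a block (0.65, adjusted p = 0.0525).

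The palindromic cAMP response element TGACGTCA was searched in the 35 genes with an entry in RefSeq's promoter table (GRCm38.p6). Hyou1, Manf and Atf6 had none. The element was in 1 of the 38 windows of the 35 genes, that of Ppp1r15a, and in 1.79% of all 32851 windows. A single match is near that share, so it does not set these genes apart. A window covers 250 bases before to 50 after the annotated start, searched on both strands. The 250 bases before the start follow, with the element in capitals.
Ppp1r15a, chr7:45526269-45526518, minus strand: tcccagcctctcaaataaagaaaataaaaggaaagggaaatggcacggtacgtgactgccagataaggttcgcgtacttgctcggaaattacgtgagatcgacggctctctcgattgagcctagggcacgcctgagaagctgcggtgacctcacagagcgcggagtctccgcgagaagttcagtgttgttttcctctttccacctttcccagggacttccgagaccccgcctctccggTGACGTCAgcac
The element's first base lies 12 bases before the start. A match of letters is a description and does not show that a factor binds there. None of the 35 held the XBP1-type element TGACGTGG, which 0.676% of windows held.

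Ddit4 (REDD1), an inhibitor of mTOR signalling induced by several stresses, was high at every treated time in both lines. Ddit4 read 9.33, 9.05, 9.74 and 10.96 untreated, 11.37, 11.51 and 11.59 at 2 h, 11.48, 11.45 and 11.62 at 6 h, and 10.94, 12.18 and 11.82 at 24 h in WT cells (log2 intensity). Ddit4 read 10.35, 9.67, 9.78 and 9.62 untreated, 12.52, 12.23 and 12.53 at 2 h, 11.89, 11.73 and 11.64 at 6 h, and 11.52, 12.28 and 11.93 at 24 h in D- cells. WT untreated replicate 4 lay above its group at 10.96, and apart from its overlap with WT 24 h replicate 1 the treated and untreated arrays were separate. Ddit4 rose in WT cells by 1.72, 1.75 and 1.88 at 2, 6 and 24 h (log2, SE 0.32; limma adjusted p = 0.000374, 0.000222 and 4.14e-05), and in D- cells by 2.57, 1.90 and 2.06 (adjusted p = 3.47e-06, 0.000115 and 3.84e-05). All 6 of these calls held without any single array.

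CHOP (Ddit3), the C/EBP factor tied to death after prolonged ER stress, was called at 2 h only. WT log2 intensities of Ddit3 were 7.83, 8.09, 8.65 and 9.05 untreated, 8.95, 9.35 and 10.19 at 2 h, 8.15, 8.83 and 9.03 at 6 h, and 8.47, 8.90 and 8.92 at 24 h. D- log2 intensities of Ddit3 were 8.01, 8.19, 8.47 and 8.19 untreated, 9.78, 9.81 and 9.68 at 2 h, 8.28, 8.09 and 7.85 at 6 h, and 8.58, 8.19 and 8.09 at 24 h. All D- arrays at 2 h stood above all other D- arrays, whereas in WT cells the 2 h arrays overlapped the untreated ones, which themselves ran from 7.83 to 9.05. Ddit3 rose at 2 h by 1.09 in WT (log2, SE 0.27, limma adjusted p = 0.00483) and by 1.54 in D- cells (adjusted p = 0.000221). Without WT 2 h replicate 3 the WT change was 0.74 and missed the threshold (adjusted p = 0.0642). At 6 and 24 h the changes were 0.26 and 0.36 in WT (adjusted p = 0.5 and 0.296) and -0.14 and 0.07 in D- cells (adjusted p = 0.75 and 0.877).

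Atf4 itself encodes the factor that most of this branch answers to. Atf4 had log2 intensities in WT cells of 12.56, 12.74, 12.65 and 12.92 untreated, 12.31, 12.33 and 12.69 at 2 h, 12.15, 12.22 and 12.62 at 6 h, and 12.10, 11.41 and 11.67 at 24 h. Its D- values were 12.41, 12.24, 12.53 and 12.45 untreated, 12.62, 12.65 and 12.60 at 2 h, 12.34, 12.22 and 12.18 at 6 h, and 12.32, 11.82 and 11.57 at 24 h. Its arrays at 24 h lay below all untreated arrays in WT cells, and D- 24 h replicate 1, at 12.32, overlapped the untreated D- arrays. Atf4 fell by 0.99 in WT cells at 24 h (log2, SE 0.16, limma adjusted p = 2.73e-05) and by 0.50 in D- cells (adjusted p = 0.0218). The D- call was lost without D- untreated replicate 3 (-0.46, adjusted p = 0.055), D- 24 h replicate 2 (-0.46, adjusted p = 0.0839) or D- 24 h replicate 3 (-0.34, adjusted p = 0.172), and the value was -0.79 in the set of 16 arrays (adjusted p = 0.00222). At 2 and 6 h the changes ran from -0.38 in WT at 6 h to 0.22 in D- cells at 2 h, none of them called. A dimmer probe set of Atf4 read -0.71 in WT cells at 6 h, a call (adjusted p = 0.0121), and at 24 h -1.30 in WT (adjusted p = 2.38e-05) and -0.44 in D- cells (adjusted p = 0.119).

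Atf5, a related bZIP factor also favoured by eIF2 phosphorylation, went the same way. On WT arrays the log2 intensity of Atf5 was 8.96, 9.01, 9.50 and 9.62 untreated, 8.84, 9.16 and 9.50 at 2 h, 8.24, 7.99 and 8.68 at 6 h, and 7.76, 6.75 and 7.59 at 24 h. On D- arrays Atf5 was 9.24, 9.69, 8.87 and 8.86 untreated, 9.39, 8.96 and 8.81 at 2 h, 8.95, 8.16 and 8.21 at 6 h, and 8.67, 8.22 and 7.75 at 24 h. The 24 h arrays of both lines lay below all their untreated arrays. Atf5 fell in WT cells by 0.97 at 6 h (log2, SE 0.28, limma adjusted p = 0.0105) and 1.91 at 24 h (adjusted p = 7.71e-06), and in D- cells by 0.95 at 24 h (adjusted p = 0.0125). Without WT 6 h replicate 2 the 6 h value was -0.81 (adjusted p = 0.0656), and without D- 24 h replicate 3 the D- value was -0.72 (adjusted p = 0.0965).

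Chac1, a glutathione-degrading enzyme and a sensitive target of ATF4 with CHOP, also fell. Chac1 read 7.63, 7.62, 7.94 and 8.64 untreated, 7.24, 7.14 and 7.68 at 2 h, 6.23, 6.32 and 6.71 at 6 h, and 6.96, 5.65 and 5.64 at 24 h in WT cells (log2 intensity). Chac1 read 7.67, 7.74, 7.46 and 7.53 untreated, 8.27, 8.01 and 7.80 at 2 h, 7.09, 6.88 and 6.66 at 6 h, and 7.37, 6.50 and 6.11 at 24 h in D- cells. At 6 and 24 h no array of either line reached its untreated range. Chac1 fell in WT cells by 1.53 at 6 h and 1.87 at 24 h (log2, SE 0.30; limma adjusted p = 0.000402 and 1.91e-05) and in D- cells by 0.94 at 24 h (adjusted p = 0.0193), a call lost without D- 24 h replicate 2 (-0.86, adjusted p = 0.0778) or replicate 3 (-0.66, adjusted p = 0.145). At 2 h the values were -0.61 in WT (adjusted p = 0.161) and 0.43 in D- cells (adjusted p = 0.379). Trib3, a pseudokinase that ATF4 and CHOP induce and that damps them in return, was called at no time. WT log2 intensities of Trib3 were 7.34, 6.83, 7.77 and 8.64 untreated, 6.89, 7.30 and 7.84 at 2 h, 7.56, 6.89 and 7.72 at 6 h, and 7.30, 6.90 and 6.76 at 24 h. D- log2 intensities of Trib3 were 6.56, 6.93, 6.78 and 6.90 untreated, 7.64, 7.33 and 6.78 at 2 h, 6.92, 6.74 and 6.89 at 6 h, and 6.59, 6.13 and 6.05 at 24 h. Its changes lay between -0.66 in WT at 24 h (SE 0.31, limma adjusted p = 0.082) and 0.46 in D- cells at 2 h (adjusted p = 0.35).

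The element at which ATF4 pairs with a C/EBP factor, TGATGNAA on either strand, was in the windows of 5 of the 35 genes and in 3.97% of all windows. It is shown for the 3 of these 5 that passed the filter on dim probe sets, from GRCm38.p6, with the fixed letters of the element in capitals and 5 bases on each side, read on the gene's strand.
Chac1, chr2:119351044-119351061, plus strand: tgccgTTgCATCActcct
Herpud1, chr8:94386312-94386329, plus strand: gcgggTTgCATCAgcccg
Trib3, chr2:152344034-152344051, minus strand: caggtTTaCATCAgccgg
In all 3 the element is on the opposite strand, and in Trib3 it lies after the start. Of the 3, Herpud1 was called higher at 2 h in D- cells (0.92, limma adjusted p = 0.0135), and there was no other call in the higher direction at 2, 6 or 24 h by the brightest probe sets.

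Cebpb, a C/EBP factor that can pair with ATF4 and CHOP, was lowest at 6 h. Cebpb had log2 intensities in WT cells of 7.97, 7.94, 7.50 and 8.07 untreated, 7.26, 6.85 and 6.87 at 2 h, 6.88, 6.44 and 7.15 at 6 h, and 7.53, 7.47 and 7.54 at 24 h. Its D- values were 7.39, 8.01, 7.72 and 7.51 untreated, 7.72, 7.19 and 7.14 at 2 h, 7.03, 6.53 and 6.63 at 6 h, and 7.67, 7.37 and 7.52 at 24 h. All 6 h arrays lay below all untreated arrays of their line, and by 24 h the ranges overlapped again. Cebpb fell in WT cells by 0.87 at 2 h and 1.05 at 6 h (log2, SE 0.19; limma adjusted p = 0.00131 and 0.000159), and in D- cells by 0.92 at 6 h (adjusted p = 0.000672). The mean of its probe sets gave -0.56 and -0.68 in WT cells (adjusted p = 0.00676 and 0.000947). Cebpg, the dimer partner of ATF4, ranged from -0.44 to 0.14 over the 6 treated groups and was called lower at 24 h in WT (-0.39, adjusted p = 0.0226) and D- cells (-0.44, adjusted p = 0.02). Its dimmer probe set was called higher at 2 h in both lines (0.65 in WT, adjusted p = 0.00431, and 0.85 in D- cells, adjusted p = 0.00043), where the brightest read -0.15 and -0.28, so its direction at 2 h is not settled. At 24 h that probe set read -0.63 in WT (adjusted p = 0.00207) and -0.18 in D- cells (adjusted p = 0.423). Sesn2, a leucine sensor and mTOR inhibitor, ranged from -0.45 in WT cells at 6 h to 0.41 in D- cells at 24 h, both called. Its group means lay between 5.35 and 6.15, not far above the filter at log2 5. Leaving out 1 array at a time gave 1 to 3 genes of the branch called higher in D- cells at 24 h. Atf3, an early repressor induced by ATF4, was not above the filter: its arrays read 2.19 to 2.44, so no change is given.

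**Figure D2:**
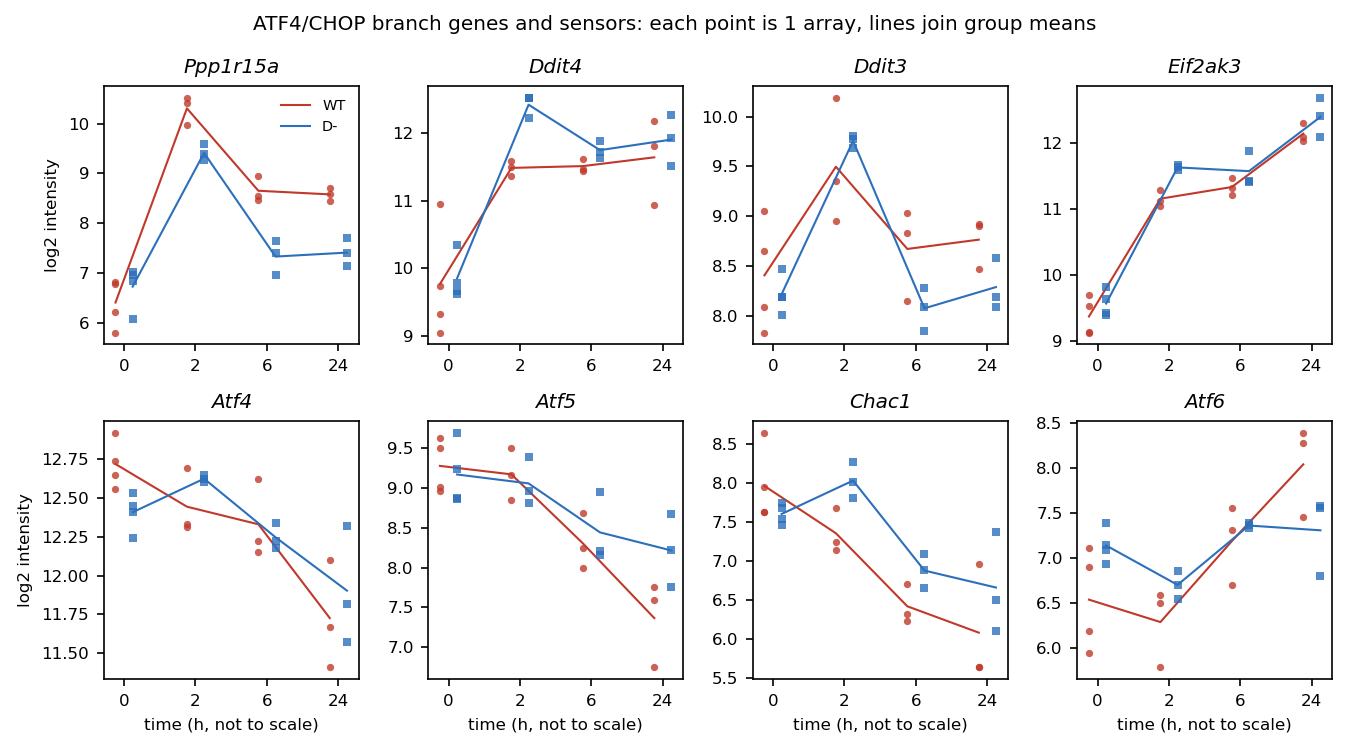
Log2 intensity (y) of 8 genes of the ATF4 and CHOP branch and of the sensors on every array, by time on 8-CPT-cAMP (x, h, not to scale), with WT in red circles, D- in blue squares and lines through group means. Ppp1r15a separates the lines at 2, 6 and 24 h, Ddit3 returns after 2 h, and Atf4, Atf5 and Chac1 decline.

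Counted over the 10 tested genes of the branch, WT cells had 3 higher and 1 lower at 2 h, 2 and 4 at 6 h, and 2 and 4 at 24 h, with medians of -0.13, -0.32 and -0.38. D- cells had 3 and 0 at 2 h, where 4 genes had an unadjusted limma p under 0.05, then 1 and 1 at 6 h and 3 and 4 at 24 h, with medians of 0.39, -0.07 and -0.29. The medians over all genes tested lay between -0.02 and 0.00. At 2 h 30.0% of the branch was higher in each line, against 11.2% of all genes in WT and 9.05% in D- cells. In WT cells at 6 and 24 h 40.0% was lower, against 19.1% and 27.5%, and 20.0% higher, against 19.1% and 26.4%. In D- cells at 6 h 10.0% was higher and 10.0% lower, against 16.2% and 15.6%. At 24 h there 30.0% was higher and 40.0% lower, against 17.1% and 17.6%. A further list of ATF4 target genes outside the 38, mostly amino acid synthesis, transport and tRNA charging, had 32 of 36 genes tested. In WT cells 1 rose and 21 fell at 6 h and 1 rose and 26 fell at 24 h (medians -0.71 and -1.30). Lower were thus 65.6% and 81.2%, against 19.1% and 27.5% of all genes. In D- cells 1 rose and 14 fell at 6 h and 1 rose and 24 fell at 24 h (medians -0.45 and -0.82). Lower there were 43.8% and 75.0%, against 15.6% and 17.6% of all genes. The genes with the lowest values were Shmt2, the mitochondrial serine hydroxymethyltransferase, at -2.70 in WT at 24 h (SE 0.25, limma adjusted p = 1.1e-08), and Cth, cystathionine gamma-lyase, at -3.36 (SE 0.78, adjusted p = 0.000921). In each of these groups the gene that rose was Jdp2, a bZIP repressor, at 0.91 in WT (SE 0.18, adjusted p = 0.000152) and 2.06 in D- cells (adjusted p = 1.21e-08) at 24 h.

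Among sensors, PERK (Eif2ak3) rose in every treated group and was highest at 24 h. On WT arrays the log2 intensity of Eif2ak3 was 9.69, 9.14, 9.53 and 9.13 untreated, 11.29, 11.05 and 11.12 at 2 h, 11.21, 11.46 and 11.32 at 6 h, and 12.02, 12.30 and 12.09 at 24 h. On D- arrays Eif2ak3 was 9.39, 9.63, 9.43 and 9.82 untreated, 11.67, 11.58 and 11.63 at 2 h, 11.41, 11.42 and 11.88 at 6 h, and 12.09, 12.40 and 12.68 at 24 h. All treated arrays lay above all untreated ones by over 1 log2 unit, and the 24 h arrays above all others. Eif2ak3 rose by 1.78, 1.96 and 2.76 in WT cells (log2, SE 0.16; limma adjusted p = 2.28e-08, 6.15e-09 and 1.56e-11) and by 2.06, 2.00 and 2.82 in D- cells (adjusted p = 2.76e-09, 5.76e-09 and 2.03e-11), which is 6.77-fold and 7.08-fold at 24 h. From 6 to 24 h it rose by 0.80 in WT and 0.82 in D- cells (adjusted p = 0.000883 and 0.0017).

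Atf6, the sensor that is itself a transcription factor, rose at 24 h in WT cells. Atf6 read 5.94, 6.18, 7.11 and 6.90 untreated, 5.78, 6.49 and 6.58 at 2 h, 6.69, 7.31 and 7.55 at 6 h, and 7.45, 8.39 and 8.27 at 24 h in WT cells (log2 intensity). Atf6 read 7.09, 7.38, 6.93 and 7.14 untreated, 6.54, 6.70 and 6.85 at 2 h, 7.33, 7.38 and 7.36 at 6 h, and 6.79, 7.57 and 7.55 at 24 h in D- cells. The untreated WT arrays fell into a low pair, 5.94 and 6.18, and a high pair, 6.90 and 7.11, which follow the 2 array sets. Atf6 rose by 1.51 in WT at 24 h (log2, SE 0.28, limma adjusted p = 0.00011), while in D- cells the value was 0.17 (adjusted p = 0.714). Xbp1, the factor whose mRNA IRE1 splices, was higher in treated WT cells at all times by its brightest probe set. WT log2 intensities of Xbp1 were 10.27, 10.16, 10.07 and 10.38 untreated, 10.46, 10.98 and 11.03 at 2 h, 10.60, 11.21 and 11.33 at 6 h, and 10.59, 10.79 and 10.78 at 24 h. D- log2 intensities of Xbp1 were 10.36, 10.88, 10.63 and 10.57 untreated, 10.86, 10.94 and 10.92 at 2 h, 10.74, 10.77 and 10.86 at 6 h, and 10.97, 10.78 and 10.95 at 24 h. No treated WT array fell into the untreated WT range, whereas the D- ranges overlapped at each time. Xbp1 rose in WT cells by 0.60, 0.83 and 0.50 (SE 0.16; limma adjusted p = 0.00576, 0.000244 and 0.00949), and the D- values were 0.30, 0.18 and 0.29 (adjusted p = 0.202, 0.432 and 0.165). With the mean of its probe sets the WT values were 0.53 at 6 h (adjusted p = 0.0057) and 0.30 at 24 h (adjusted p = 0.0813). Among its dimmer probe sets the only call in either line was 0.69 in WT at 6 h (adjusted p = 0.0211). At 24 h each dimmer probe set read higher in D- than in WT cells, one of them 0.38 against 0.25. No difference of response between the lines was called for Xbp1. The remaining sensors were not called by their brightest probe sets: the change of IRE1 (Ern1) lay between -0.04 and 0.25, that of the amino acid sensor Eif2ak4 between -0.33 and 0.05, and that of the double-stranded RNA kinase Eif2ak2 between -0.23 and 0.34. A dimmer probe set of Eif2ak2 was called higher in WT cells at 2 and 6 h (0.84 and 0.60, limma adjusted p = 0.00234 and 0.0176).

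Among ER chaperones and folding enzymes, calls were mostly higher at 6 h and mostly lower at 24 h. Of the 14 tested, 3 were higher at 2 h, 10 at 6 h and 2 at 24 h in WT cells, and 0, 0 and 5 were lower, with medians of 0.18, 0.60 and -0.33. In D- cells 3, 4 and 1 were higher and 0, 0 and 5 lower, with medians of 0.25, 0.37 and -0.33. In WT cells at 6 h, 71.4% of the 14 were thus higher against 19.1% of all genes, and at 24 h 14.3% were higher against 26.4% and 35.7% lower against 27.5%. The D- shares were 28.6% higher at 6 h against 16.2%, and at 24 h 7.14% higher against 17.1% and 35.7% lower against 17.6%. At 2 h 21.4% were higher in each line, against 11.2% of all genes in WT and 9.05% in D- cells. In each line the 3 genes behind that share include Dnajc3, which its other probe sets oppose at 2 h. For the lower counts of 0, the genes with an unadjusted limma p under 0.05 in either direction numbered 4 and 10 in WT and 6 and 7 in D- cells. At 6 h all 14 values were above 0 in WT and 12 of 14 in D- cells. Leaving out 1 array at a time gave 7 to 11 higher in WT cells at 6 h and 2 to 9 lower at 24 h, and in D- cells 3 to 5 higher at 6 h and 2 to 6 lower at 24 h.

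**Figure D3:**
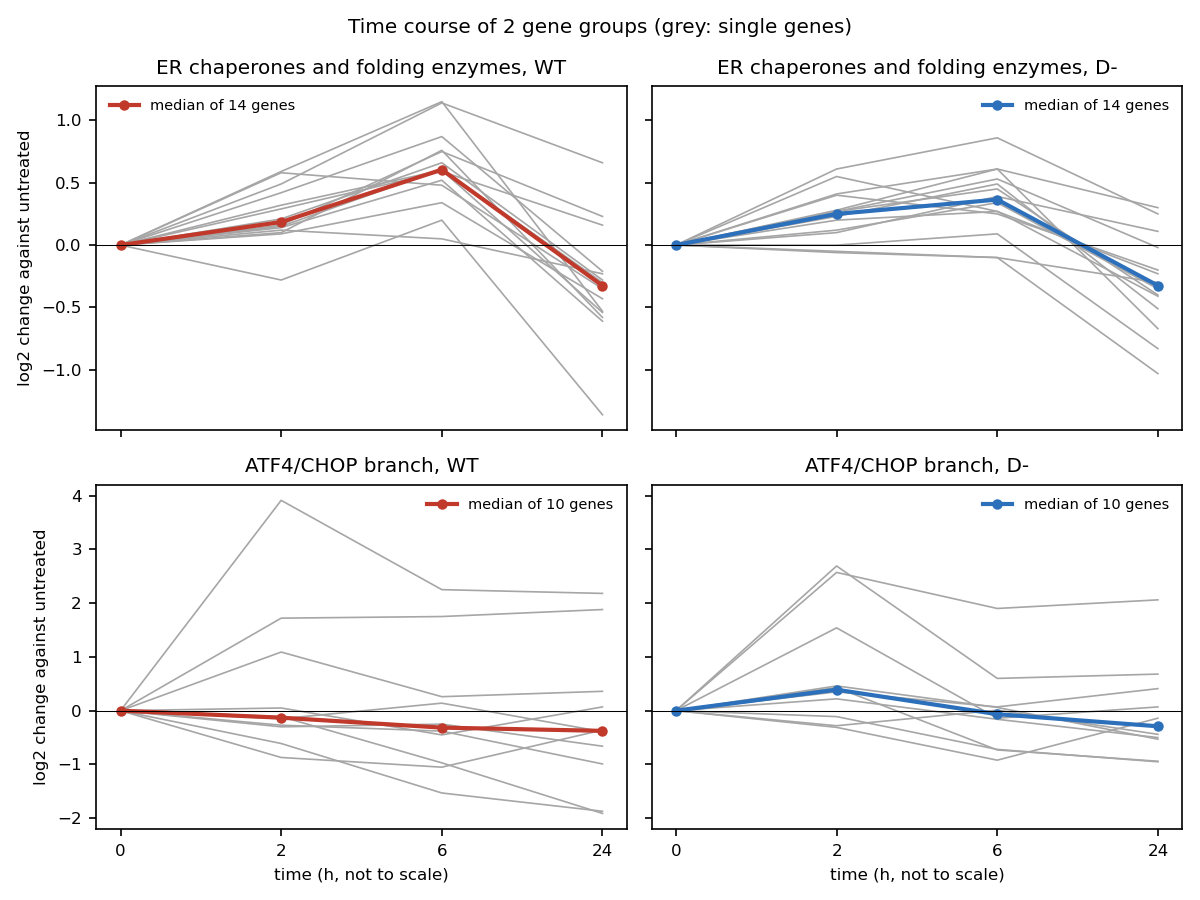
Log2 change against untreated cells (y) of the 14 chaperones and folding enzymes (top) and the 10 ATF4 and CHOP branch genes (bottom), by time (x, h, not to scale), for WT (left) and D- (right), with single genes in grey and the median in colour. The chaperone medians go from 0.60 in WT and 0.37 in D- cells at 6 h to -0.33 in both at 24 h, while single branch genes spread from 3.91 to -1.91.

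The ER stress element, CCAAT and CCACG with 9 bases of any kind between them, to which NF-Y and ATF6 bind, was in the windows of 8 of the 35 genes and in 0.119% of all 32851. It is shown because all but 1 of these 8 genes are chaperone or folding genes, although other genes of that group have no match. The matches follow, from GRCm38.p6, read on the gene's strand with 5 bases on each side and the fixed letters in capitals.
Hspa5, chr2:34772020-34772048, plus strand: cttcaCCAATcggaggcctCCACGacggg
Hsp90b1, chr10:86705633-86705661, minus strand: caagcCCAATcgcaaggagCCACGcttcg
Hsp90b1, chr10:86705528-86705556, minus strand: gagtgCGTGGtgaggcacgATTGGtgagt
Calr, chr8:84847070-84847098, minus strand: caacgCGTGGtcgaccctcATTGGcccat
Canx, chr11:50325795-50325823, minus strand: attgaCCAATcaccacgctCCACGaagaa
Pdia6, chr12:17266486-17266514, plus strand: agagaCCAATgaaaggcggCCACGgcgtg
Dnajc3, chr14:118937822-118937850, plus strand: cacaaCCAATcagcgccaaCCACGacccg
Creld2, chr15:88819515-88819543, plus strand: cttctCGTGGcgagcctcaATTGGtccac
Syvn1, chr19:6046527-6046555, plus strand: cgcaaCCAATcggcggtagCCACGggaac
Calr, Creld2 and the second match of Hsp90b1 carry it on the opposite strand, so that it reads in reverse complement. First bases lie between 44 bases (Syvn1) and 212 bases (Hsp90b1) before the start. The 7 chaperone genes with a match had a median of 0.52 in WT cells at 6 h, with 5 higher, and the 5 tested chaperone genes with a window but no match a median of 0.66, with 3 higher. The difference between these sets was not tested.

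BiP (Hspa5), the main ER Hsp70 chaperone and the usual mark of ER stress, was highest at 2 h. Hspa5 had log2 intensities in WT cells of 13.19, 13.11, 13.32 and 13.41 untreated, 13.57, 13.97 and 13.98 at 2 h, 13.32, 13.94 and 13.95 at 6 h, and 13.16, 12.71 and 12.84 at 24 h. Its D- values were 13.42, 13.23, 13.44 and 13.59 untreated, 13.77, 14.11 and 14.02 at 2 h, 13.55, 13.74 and 13.77 at 6 h, and 13.25, 13.04 and 13.28 at 24 h. All arrays at 2 h lay above the untreated ones in both lines, and WT 6 h replicate 1, at 13.32, overlapped them. Hspa5 rose at 2 h by 0.58 in WT (log2, SE 0.15, 1.5-fold, limma adjusted p = 0.00639) and by 0.55 in D- cells (adjusted p = 0.0115), and at 6 h by 0.48 in WT cells (adjusted p = 0.0171). The D- 2 h call was lost without D- 2 h replicate 2 (0.47, adjusted p = 0.0681), and the WT 6 h call without WT untreated replicate 2 (0.43, adjusted p = 0.0512) or WT 6 h replicate 2 or 3 (0.37 for each, adjusted p = 0.11). At 24 h the values were -0.35 in WT (adjusted p = 0.055) and -0.23 in D- cells (adjusted p = 0.272), and another probe set of Hspa5 was called lower in WT cells (-0.47, adjusted p = 0.013).

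The 250 bases before the Hspa5 start are given in full, as the best known promoter of the group, with the element in capitals.
Hspa5, chr2:34771840-34772089, plus strand: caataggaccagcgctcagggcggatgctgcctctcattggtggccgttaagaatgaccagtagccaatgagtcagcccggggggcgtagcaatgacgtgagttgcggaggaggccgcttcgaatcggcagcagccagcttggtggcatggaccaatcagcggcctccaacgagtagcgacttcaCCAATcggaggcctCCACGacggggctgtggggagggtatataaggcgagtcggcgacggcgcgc
Its exact match begins 65 bases before the start. Only this exact spelling was searched, so looser copies of the element in the stretch were not counted.

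GRP94 (Hsp90b1), the ER Hsp90, peaked at 6 h instead. On WT arrays the log2 intensity of Hsp90b1 was 13.22, 13.03, 13.36 and 13.36 untreated, 13.33, 13.43 and 13.39 at 2 h, 13.58, 13.73 and 13.96 at 6 h, and 13.17, 12.17 and 12.57 at 24 h. On D- arrays Hsp90b1 was 13.39, 13.55, 13.43 and 13.50 untreated, 13.53, 13.53 and 13.70 at 2 h, 13.84, 13.64 and 13.95 at 6 h, and 13.10, 13.00 and 13.25 at 24 h. The 6 h arrays lay above all untreated arrays in both lines, and WT 24 h replicate 2 was the lowest at 12.17. Hsp90b1 rose by 0.52 in WT at 6 h (log2, SE 0.15, limma adjusted p = 0.012) and fell by 0.61 at 24 h (adjusted p = 0.00218). Without WT 6 h replicate 3 the first was 0.41 (adjusted p = 0.0817). The second was -0.37 without WT 24 h replicate 2 (adjusted p = 0.0367), -0.99 in the set of 16 arrays (adjusted p = 0.000134) and 0.04 in the set of 10. D- values were 0.34 and -0.35 (adjusted p = 0.105 and 0.0873).

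Creld2, a disulphide isomerase-like ER protein induced with BiP, made the widest swing of the chaperone group. Creld2 read 10.55, 10.56, 10.43 and 10.59 untreated, 10.95, 11.07 and 11.35 at 2 h, 11.42, 11.72 and 11.89 at 6 h, and 10.35, 9.64 and 10.03 at 24 h in WT cells (log2 intensity). Creld2 read 10.69, 10.54, 10.90 and 11.03 untreated, 11.14, 11.35 and 11.09 at 2 h, 11.10, 11.40 and 11.69 at 6 h, and 10.46, 9.72 and 10.17 at 24 h in D- cells. Its 6 h arrays stood above and its 24 h arrays below all untreated arrays in each line. Creld2 rose in WT cells by 0.59 at 2 h and 1.15 at 6 h and fell by 0.53 at 24 h (log2, SE 0.18; limma adjusted p = 0.0203, 4.26e-05 and 0.0186). In D- cells it rose by 0.61 at 6 h (adjusted p = 0.014) and fell by 0.67 at 24 h (adjusted p = 0.00633). Single arrays decided 4 of these: 0.48 without WT 2 h replicate 3 (adjusted p = 0.121), -0.34 without WT 24 h replicate 2 (adjusted p = 0.157), 0.46 without D- 6 h replicate 3 (adjusted p = 0.106) and -0.47 without D- 24 h replicate 2 (adjusted p = 0.0751). In the set of 16 arrays the D- 24 h value was -1.02 (adjusted p = 0.000807).

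Dnajc3 (p58IPK), a BiP co-chaperone and an inhibitor of eIF2 kinases, rose by its brightest probe set. WT log2 intensities of Dnajc3 were 9.58, 9.40, 9.24 and 9.28 untreated, 9.71, 9.76 and 10.13 at 2 h, 10.25, 10.60 and 10.69 at 6 h, and 10.06, 9.79 and 10.25 at 24 h. D- log2 intensities of Dnajc3 were 9.29, 9.14, 9.60 and 9.59 untreated, 9.91, 10.10 and 10.02 at 2 h, 10.10, 10.31 and 10.38 at 6 h, and 9.68, 9.63 and 9.66 at 24 h. No treated array overlapped the untreated arrays of its line. Dnajc3 rose in WT cells by 0.49, 1.14 and 0.66 (log2, SE 0.14; limma adjusted p = 0.0128, 2.06e-06 and 0.000419) and in D- cells by 0.61 and 0.86 at 2 and 6 h (adjusted p = 0.00299 and 7.94e-05). Its other probe sets went against it at 2 h, with 2 of them at -1.33 and -1.56 in WT and -0.83 and -0.91 in D- cells. The mean of all its probe sets was -0.68 in WT and -0.32 in D- cells at 2 h (adjusted p = 3.17e-05 and 0.0262), so its direction at 2 h is not settled. At 6 h that mean was 0.50 in WT (adjusted p = 0.000583) and 0.25 in D- cells (adjusted p = 0.07), and 0.34 in WT at 24 h (adjusted p = 0.00727). Without WT 2 h replicate 3 the brightest probe set gave 0.36 (adjusted p = 0.115).

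Sdf2l1, a part of the BiP chaperone cycle with J proteins, fell the most of the group and was not called higher at any time. Sdf2l1 had log2 intensities in WT cells of 10.10, 10.04, 9.83 and 9.87 untreated, 9.86, 9.64 and 9.53 at 2 h, 10.10, 10.06 and 10.33 at 6 h, and 9.23, 8.15 and 8.43 at 24 h. Its D- values were 9.76, 9.72, 9.99 and 10.04 untreated, 9.65, 9.87 and 9.93 at 2 h, 9.63, 9.73 and 9.97 at 6 h, and 9.35, 8.59 and 8.60 at 24 h. All 24 h arrays were below all other arrays of their line. Sdf2l1 fell at 24 h by 1.36 in WT (log2, SE 0.20, limma adjusted p = 6.16e-06) and by 1.03 in D- cells (adjusted p = 0.000355), with values of 0.20 and -0.10 at 6 h (adjusted p = 0.468 and 0.756).

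Protein disulphide isomerases form and shuffle disulphide bonds in the ER. P4hb rose at 6 h by 0.75 in WT and 0.61 in D- cells (log2, SE 0.09, limma adjusted p = 7.46e-07 and 1.46e-05), and Pdia3, which serves glycoproteins, by 0.59 and 0.53 (SE 0.12, adjusted p = 0.000608 and 0.00176). At 24 h P4hb was still called higher in both lines, by at most 0.23 in WT and 0.30 in D- cells. Leaving out 1 array at a time gave 1 to 2 genes of the group called higher in WT cells at 24 h. Manf, a small secreted ER stress factor, rose in WT cells at 6 h by 0.61 (adjusted p = 0.00154) and the J protein Dnajb11 by 0.66 (adjusted p = 0.00293), where the D- values were 0.27 and 0.25 (adjusted p = 0.155 and 0.266). Of the lectin chaperones of glycoproteins, Calr lay between -0.43 and 0.39 and Canx between -0.30 and 0.12. A dimmer probe set of Canx was called lower at 6 h in WT (-0.52, adjusted p = 0.0413) and D- cells (-0.53, adjusted p = 0.0415) and at 24 h in D- cells (-0.87, adjusted p = 0.00137). Pdia4 spread by array set, with untreated WT arrays at 8.15 and 8.34 against 9.37 and 9.58, and its SE of 0.51 left 0.87 in WT at 6 h uncalled (adjusted p = 0.2).

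The 5 chaperone genes that fell at 24 h were Hsp90b1, Creld2, Sdf2l1, Hyou1 and Pdia6 in WT cells and Canx, Creld2, Sdf2l1, Hyou1 and Manf in D- cells. Hyou1, an ER Hsp70 relative, fell by 0.54 in WT and 0.83 in D- cells (log2, SE 0.18; limma adjusted p = 0.0182 and 0.00128), and the WT call was lost without WT untreated replicate 3 (-0.45, adjusted p = 0.0613), WT 24 h replicate 2 (-0.45, adjusted p = 0.0903) or replicate 3 (-0.48, adjusted p = 0.0707). In the set of 16 arrays it was -0.84 (adjusted p = 0.00014). Pdia6 fell by 0.58 in WT cells (adjusted p = 0.0179), with -0.38 without WT 24 h replicate 2 (adjusted p = 0.154) and -0.46 after quantile normalization (adjusted p = 0.0501). Canx fell by 0.30 in D- cells (adjusted p = 0.0244), lost without D- untreated replicate 1 or 4 or D- 24 h replicate 1 or 2 (-0.27 or -0.28, adjusted p = 0.0632 to 0.0817) and in the set of 16 arrays (-0.25, adjusted p = 0.0777). The mean of its probe sets was -0.52 (adjusted p = 0.00229). Manf fell by 0.41 in D- cells (adjusted p = 0.0241), lost without D- untreated replicate 3 or 4 or D- 24 h replicate 2 or 3 (-0.41 to -0.31, adjusted p = 0.0585 to 0.156), with -0.63 in the set of 16 (adjusted p = 0.00345).

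The fall from 6 to 24 h was tested in a comparison added after the data had been seen. All 14 chaperone values were below 0 in both lines, with medians of -0.92 in WT and -0.65 in D- cells. Called lower were 12 of 14 in WT and 10 of 14 in D- cells, against a background of 16.9% and 8.03% of all genes lower, 15.5% and 8.1% higher and 32.4% and 16.1% in either direction, and none was called higher (13 and 11 had an unadjusted limma p under 0.05). Creld2 fell by 1.67 in WT and 1.28 in D- cells (SE 0.19; limma adjusted p = 1.31e-06 and 0.000102). The same changes were -1.56 and -0.93 for Sdf2l1, -1.12 and -0.69 for Hsp90b1, and -0.83 and -0.50 for Hspa5, all called. The Hspa5 call in D- cells (adjusted p = 0.0431) was lost without any 1 of 9 arrays (-0.54 to -0.42, adjusted p = 0.05 to 0.155): D- untreated replicate 1 or 3, D- 2 h replicate 3, D- 6 h replicate 2 or 3, D- 24 h replicate 1, 2 or 3, or WT 24 h replicate 3. It was lost too with no filter on dim probe sets (adjusted p = 0.0638). Within the set of 16 arrays, which was drawn from these same data, 14 of 14 and 12 of 14 fell (medians -1.15 and -0.69). Within the set of 10, with 1 array a treated group, none was called. Over all 34 genes 18 fell and 4 rose in WT cells and 12 fell and 2 rose in D- cells.

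**Figure D4:**
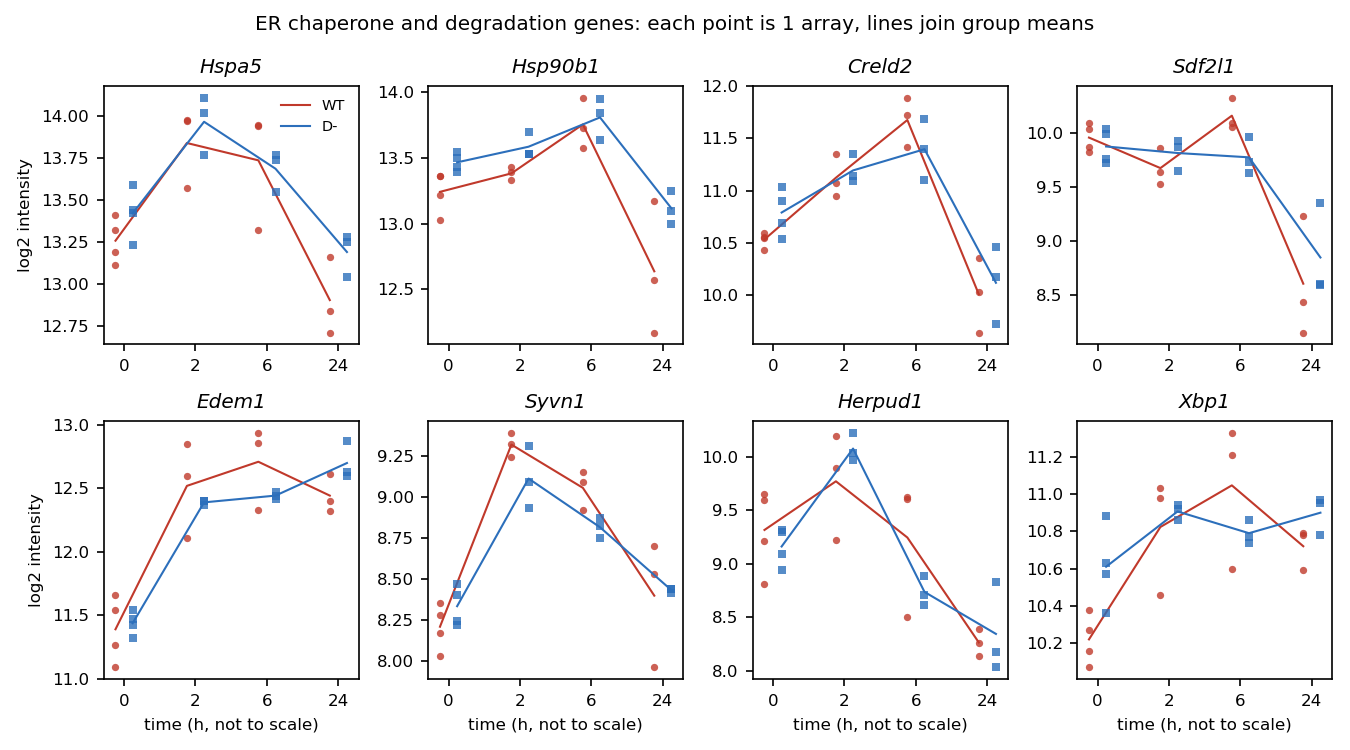
Log2 intensity (y) of 8 chaperone, degradation and XBP1 genes on every array, by time on 8-CPT-cAMP (x, h, not to scale), with WT in red circles, D- in blue squares and lines through group means. Hspa5, Hsp90b1, Creld2 and Sdf2l1 sit lowest at 24 h, while Edem1 stays high.

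ER-associated degradation sends misfolded proteins to the proteasome, and its genes split between lasting and passing rises. Edem1, a mannosidase-like protein that marks glycoproteins for disposal, rose at all times by its brightest probe set. On WT arrays the log2 intensity of Edem1 was 11.09, 11.27, 11.66 and 11.54 untreated, 12.11, 12.60 and 12.85 at 2 h, 12.33, 12.94 and 12.86 at 6 h, and 12.40, 12.32 and 12.61 at 24 h. On D- arrays Edem1 was 11.47, 11.42, 11.32 and 11.54 untreated, 12.40, 12.40 and 12.37 at 2 h, 12.44, 12.47 and 12.42 at 6 h, and 12.60, 12.63 and 12.87 at 24 h. No treated array overlapped the untreated arrays of its line. Edem1 rose by 1.13, 1.32 and 1.05 in WT (log2, SE 0.16; limma adjusted p = 1.57e-05, 1.61e-06 and 9.54e-06) and by 0.95, 1.01 and 1.26 in D- cells (adjusted p = 0.000125, 5.9e-05 and 2.83e-06). Another of its probe sets was not called at 6 h, with 0.31 in WT (adjusted p = 0.25) and -0.01 in D- cells (adjusted p = 0.986). The mean of its probe sets was 0.81 in WT and 0.50 in D- cells at 6 h (adjusted p = 0.00064 and 0.0274).

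Syvn1 (HRD1), the ubiquitin ligase of the pathway, rose early and returned. Syvn1 read 8.35, 8.28, 8.03 and 8.17 untreated, 9.32, 9.24 and 9.39 at 2 h, 9.09, 8.92 and 9.15 at 6 h, and 8.70, 7.96 and 8.53 at 24 h in WT cells (log2 intensity). Syvn1 read 8.24, 8.40, 8.22 and 8.47 untreated, 8.93, 9.31 and 9.09 at 2 h, 8.82, 8.87 and 8.75 at 6 h, and 8.41, 8.44 and 8.44 at 24 h in D- cells. At 2 and 6 h every treated array was above every untreated one, and at 24 h they overlapped. Syvn1 rose by 1.11 and 0.85 in WT (log2, SE 0.13; limma adjusted p = 1.57e-06 and 3.37e-05) and by 0.78 and 0.48 in D- cells (adjusted p = 0.000138 and 0.00737) at 2 and 6 h, the last at 0.47 in the set of 16 arrays (adjusted p = 0.0515). At 24 h the values were 0.19 and 0.10 (adjusted p = 0.251 and 0.627).

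Herpud1, an ER membrane protein that gathers the ligase complex and that ER stress induces, ended below its start. WT log2 intensities of Herpud1 were 9.21, 8.81, 9.60 and 9.65 untreated, 9.22, 9.90 and 10.20 at 2 h, 8.50, 9.63 and 9.61 at 6 h, and 8.14, 8.39 and 8.26 at 24 h. D- log2 intensities of Herpud1 were 9.09, 8.94, 9.32 and 9.30 untreated, 10.04, 10.23 and 9.97 at 2 h, 8.71, 8.61 and 8.89 at 6 h, and 8.83, 8.03 and 8.17 at 24 h. The D- arrays at 2 h were above and all 24 h arrays below the untreated ones. Herpud1 rose by 0.92 in D- cells at 2 h (log2, SE 0.26, limma adjusted p = 0.0135), with 0.85 without D- 2 h replicate 2 (adjusted p = 0.0617), and the WT value was 0.46 (adjusted p = 0.232), where its other probe set was called (0.63, adjusted p = 0.0445). It fell at 24 h by 1.05 in WT (adjusted p = 0.00173) and 0.82 in D- cells (adjusted p = 0.0188), the latter lost without D- 24 h replicate 2 (-0.66, adjusted p = 0.112) or replicate 3 (-0.73, adjusted p = 0.078). Sel1l, the adaptor of the ligase, read 0.39 in WT at 6 h, -0.44 in WT and -0.48 in D- cells at 24 h (SE 0.15; limma adjusted p = 0.0494, 0.0181 and 0.0166), but another of its probe sets read 0.28 and 0.03 at 24 h. At 2 h in WT cells the brightest probe set of Sel1l read 0.27 (adjusted p = 0.228), while 3 dimmer ones were called higher (0.36 to 1.07, adjusted p = 0.0255 to 0.000247). The 6 h call was lost without most single arrays (0.26 without WT 6 h replicate 2, adjusted p = 0.278), the WT 24 h call without WT untreated replicate 3 (-0.35, adjusted p = 0.0686), and the D- call without D- untreated replicate 1 or D- 24 h replicate 1 or 2 (-0.41 to -0.39, adjusted p = 0.0592 to 0.0924) and with the mean of its probe sets (-0.19, adjusted p = 0.19).

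Other ER genes, from lists outside the 38, moved at 6 h too. Of 34 tested translocation, glycosylation and transport genes, 19 rose in WT and 14 in D- cells and 0 fell in either (medians 0.36 and 0.23), with 21 and 16 at an unadjusted limma p under 0.05. The background was 19.1% and 16.2% of genes higher. The highest was Arfgap3, a Golgi transport regulator, at 1.29 in WT (SE 0.26, limma adjusted p = 0.000524) and 1.51 in D- cells (adjusted p = 0.000144). Of 17 other degradation genes 9 rose and 1 fell in WT and 8 rose and 1 fell in D- cells, led in WT by Selenos at 1.42 (SE 0.17, adjusted p = 1.05e-06). Of 18 other folding genes 7 rose and 1 fell in WT and 4 rose and 1 fell in D- cells, and the ER oxidase Ero1a rose by 1.95 and 1.45 (SE 0.21, adjusted p = 4.57e-07 and 2.55e-05). At 24 h the transport genes had 9 higher and 3 lower in WT and 5 higher and 3 lower in D- cells, with medians of 0.08 and -0.01, and their higher shares of 26.5% and 14.7% lay near the 26.4% and 17.1% of all genes. The other degradation genes had 10 higher and 3 lower in WT (median 0.45, 58.8% higher) and 3 higher and 5 lower in D- cells (median 0.10, 17.6% higher) at 24 h. The other folding genes had 8 higher and 4 lower in WT (median 0.25, 44.4% higher) and 5 higher and 1 lower in D- cells (median 0.20, 27.8% higher). Of 16 other stress signalling genes 3 rose and 2 fell in WT and 3 rose and 4 fell in D- cells at 6 h, led by Creb3, an ER-bound factor, at 0.94 and 0.87 (SE 0.15, adjusted p = 5.3e-05 and 0.000153). In WT cells 18.8% of this list was higher and 12.5% lower, against 19.1% of all genes in each direction. In D- cells 18.8% was higher and 25.0% lower, against 16.2% and 15.6%. The WT shares are at or below the background, so this list is not read as set apart there.

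The lines were compared at rest and in their response. No stress gene was called between untreated D- and untreated WT cells by limma (0 of 34, against 5.0% of all genes, 1.91% higher and 3.09% lower), and 3 had an unadjusted p under 0.05. As a D- minus WT difference of response, 0 of 34 were called at 2 h (background 0.242%, 0.0538% higher and 0.188% lower, with 4 of the 34 at an unadjusted p under 0.05), 1 at 6 h (0.592%, 0.148% higher and 0.444% lower) and 2 at 24 h (12.3%, 7.32% higher and 5.0% lower), all lower in D- cells. These were Ppp1r15a at 6 h and Ppp1r15a and Atf6 at 24 h. At 24 h the share was below the background.

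The Ppp1r15a response in D- minus that in WT cells was -1.65 on the log2 scale at 6 h (SE 0.34, 95% interval -2.36 to -0.93, limma adjusted p = 0.0253) and -1.49 at 24 h (interval -2.21 to -0.78, adjusted p = 0.00561). All 3 D- arrays at each of these times lay below all 3 WT arrays, with D- at 6.95 to 7.70 and WT at 8.45 to 8.94. At 2 h the value was -1.22 (interval -1.93 to -0.50, adjusted p = 0.254). The D- arrays lay below the WT arrays at 2 h as well, at 9.26 to 9.58 against 9.98 to 10.52. The 6 h call was lost without any 1 of 8 arrays (values -1.70 to -1.46, adjusted p = 0.0528 to 0.117): D- untreated replicate 1, 2 or 3, D- 6 h replicate 2 or 3, WT untreated replicate 2, or WT 6 h replicate 2 or 3. It was -1.73 in the set of 16 arrays (adjusted p = 0.0807). The 24 h call held without any single array.

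For Atf6 the difference of response at 24 h was -1.34 (SE 0.40, 95% interval -2.17 to -0.51, limma adjusted p = 0.0301). The untreated D- arrays read 6.93 to 7.38 and the untreated WT arrays 5.94 to 7.11, a line difference at rest of 0.60 (adjusted p = 0.287). The call was lost without any 1 of 6 arrays (values -1.26 to -1.08, adjusted p = 0.0596 to 0.107): D- untreated replicate 2, D- 24 h replicate 1, WT untreated replicate 1 or 2, or WT 24 h replicate 2 or 3. It was lost with no filter on dim probe sets (adjusted p = 0.0552) and was -0.80 in the set of 16 arrays (adjusted p = 0.00658). Among the other genes the differences of response at 24 h ran from -0.41 for Dnajc3 (interval -0.82 to 0.01) to 0.95 for Atf5 (interval 0.12 to 1.79, adjusted p = 0.138). Narrow intervals were those of P4hb (-0.18 to 0.32) and Ern1 (-0.24 to 0.35), and Hspa5 had -0.32 to 0.57. The interval of Pdia4, -1.80 to 1.19, was the widest of the 34.

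**Figure D5:**
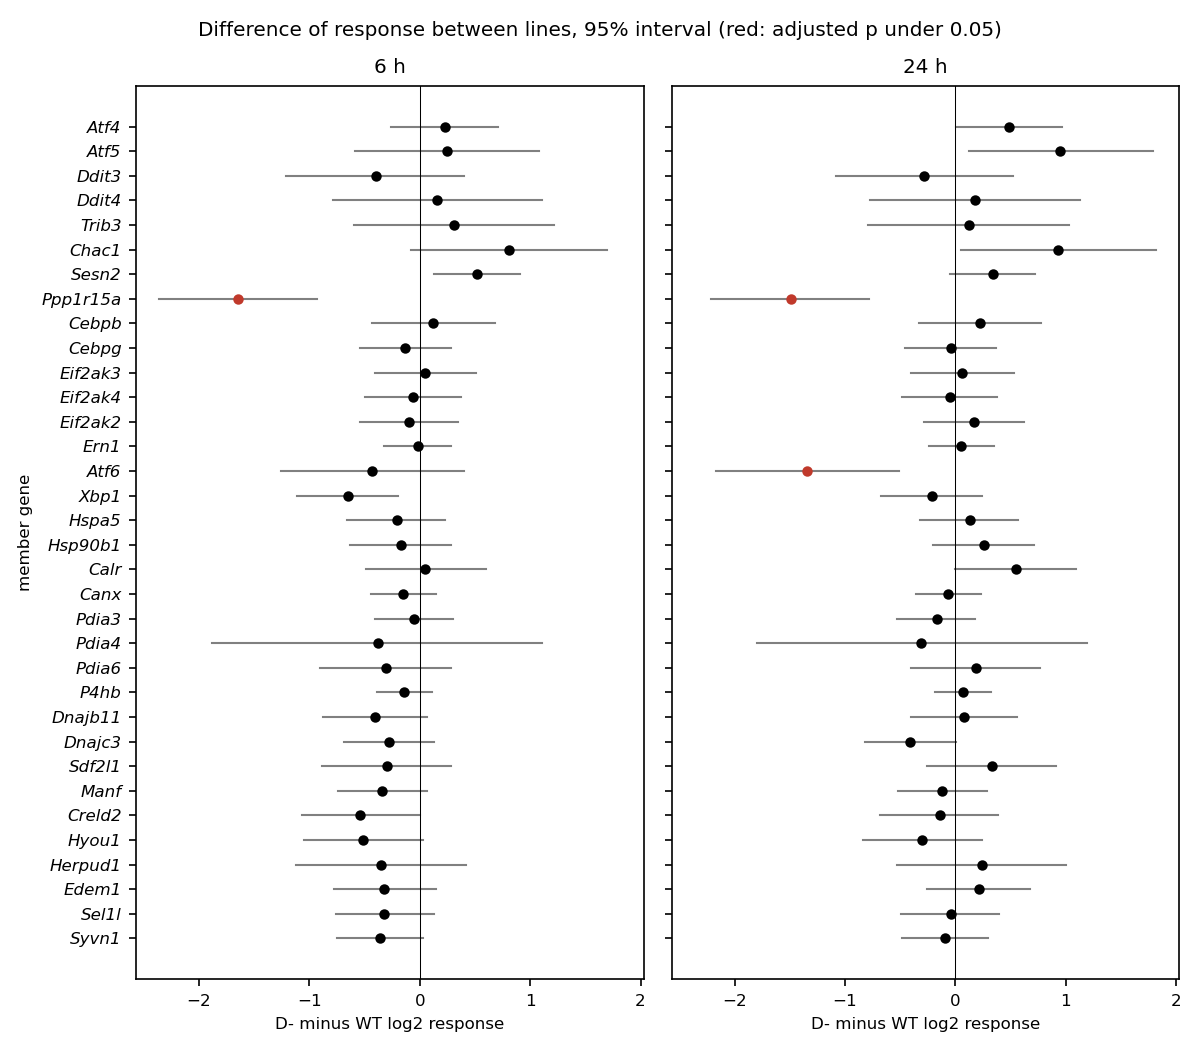
D- minus WT difference of log2 response (x) at 6 h (left) and 24 h (right) for each tested gene (y), with the 95% interval as a bar and red where the limma adjusted p was under 0.05. Red points are Ppp1r15a at -1.65 and -1.49 and Atf6 at -1.34, and most other intervals cross 0.

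Of the 4 genes under the filter, the ER J protein Dnajb9 read 2.48 to 2.87 over all arrays, Atf3 2.19 to 2.44, the calcium-binding Nucb2 2.65 to 3.16 and the lipoprotein receptor Vldlr 4.29 to 4.72. All of these values lie under the filter at log2 5, so no change is given for these genes, Vldlr and Atf3 being ATF4 targets and Dnajb9 an XBP1 target.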

How the data were processed

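The deposited table of the series held, for 26 single-colour arrays, intensity values on a linear scale that the authors summarised with GCRMA, per the submitters' processing notes. Its version is not given in the sources used here, nor is it said whether both lines were normalized together. GCRMA gives all arrays like distributions, which hides a shift common to most probe sets, and it flattens differences among dim ones. Median intensity per array was 41.6 to 45.4. Log2 of the deposited intensity was taken, with no further normalization. Of 22690 probe sets, 64 controls were left out, 20380 had 1 gene symbol in the platform annotation, 691 several and 1555 none, and only those with a single symbol were used to name genes.

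limma 3.58.1 in R 4.3.3 (lmFit, eBayes) was fitted to the 12724 probe sets that reached log2 5 (intensity 32) on 3 or more arrays. The fit had 8 group means and 18 residual degrees of freedom. It was also run on simulated data with independent noise on each array. That simulation lacks the array sets, so it gives no check on their part in the calls. Benjamini-Hochberg adjustment ran within each comparison over all probe sets tested, and the threshold was 0.05. Python 3.11.15 was used for tables. Background shares count the brightest probe set of each of 7435 genes. Replicate numbers shared by the groups were checked for pairing after group means were removed: same-numbered arrays correlated at -0.468 to 0.655 (mean 0.229, against -0.0855 for arrays of different numbers). The number follows the array sets in part, since replicate 1 of all 8 groups lies in the set of 10 and every replicate 3 and 4 in the set of 16. As some same-numbered arrays correlated below 0.1, the numbers were not taken to pair the arrays. The number of arrays limits the precision.

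Single-array values are given, in order of replicate number, for genes called with an absolute log2 change of at least 1 in a treated group, for genes called in a difference of response, and always for Hspa5, Hsp90b1, Xbp1, Atf4, Ddit3, Trib3 and Atf3. Genes outside the 38 were named when they were among the 2 highest or 2 lowest called of their list. The 38 genes, the lists and the tests were chosen with earlier results of these data known. Alternatives were quantile normalization, centring, other filters on dim probe sets, the mean of probe sets, array weights, a block for replicate number or array set, each array set alone and each array left out.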

Additional observations from a re-analysis of the deposited data

Results flagged for a closer look

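A difference between the lines in the response to 8-CPT-cAMP, tested as an interaction in limma over all probe sets, singled out 3 results. The Ppp1r15a response in D- minus that in WT cells was -1.65 on the log2 scale at 6 h and -1.49 at 24 h. For Atf6 it was -1.34 at 24 h. All 3 were called at an adjusted p under 0.05, and the arrays without which the 6 h value of Ppp1r15a and the value of Atf6 lost their call are named with those results above.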

How the results depend on the processing

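The counts of stress genes called kept within 1.5 times under quantile normalization, centring and a filter at log2 7, and exceptions elsewhere follow. For the difference of response at 24 h (2 genes) the count was 1 with no filter on dim probe sets, 5 with array weights, 5 in the set of 16 arrays and 0 in the set of 10. At 6 h (1 gene) it was 2 with array weights and 0 in the set of 10. Untreated lines (0 genes) gave 1 with the mean of probe sets, with array weights, with the array set as a block and in the set of 16. D- cells at 6 h (9 genes) gave 17 with array weights. In the set of 10, WT cells gave 5, 7 and 9 and D- cells 5, 4 and 2 at 2, 6 and 24 h, and the 24 h against 6 h comparisons 0 in both lines. Leaving out 1 array gave 8 to 11, 17 to 23 and 15 to 21 in WT cells, 7 to 12, 9 to 11 and 8 to 18 in D- cells, 0 to 1 for untreated lines, 0, 0 to 2 and 1 to 6 for the differences of response, and 16 to 25 in WT and 9 to 15 in D- cells from 6 to 24 h. Direction turned for Dnajc3 at 2 h with the mean of probe sets (-0.68 in WT, -0.32 in D- cells) and for Hsp90b1 in WT cells at 24 h in the set of 10 (0.04). With the replicate number as a block, 1 of 126 calls was lost and 6 were gained, with 12, 23 and 19 genes called in WT and 13, 9 and 16 in D- cells. After group means were removed, 8 of 26 arrays correlated best with an array of their own number. The cause of these shifts was not tested. The filter on dim probe sets leaves 4 genes without a measure of change.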
